A study of Homo sapiens with 4 samples.

Results

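The upstream H3K27ac peaks of HCT116 cells were 2876 of the 15789 H3K27ac peaks in the deposited list (18.2%, exact 95% Clopper-Pearson interval 17.6 to 18.8%), and of 28916 peaks in the H3K27ac and HSF1 lists together. A peak was a member when the first row written for its region carried the class upstream, and in these files that class meant a peak midpoint lying between 2 and 20 kb before the transcription start of the assigned gene. The choice used position only and no measured height. HCT116 is an established human colorectal carcinoma cell line, and the cells were fixed with formalin without any treatment. The study held 4 libraries with 1 per group: an H3K27ac immunoprecipitation (IP), its input, an HSF1 IP and its input. No group had a replicate, so no difference described here has a replicate check, and intervals cover counting error only.

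Acetylation of lysine 27 on histone H3 (H3K27ac) is laid down mainly by the acetyltransferases p300 and CBP and marks active promoters and active enhancers. Acetylated nucleosomes before a gene start, outside the core promoter, are often part of enhancers, which loop to promoters and are read by bromodomain proteins. HSF1 is the heat shock transcription factor, which binds heat shock elements at chaperone and other genes. Each peak comes with 4 values from the peak caller: its tags (reads inside it), its width, a score and a fold enrichment of the IP over local background. Among 17 colonic epithelial markers, 10 had an H3K27ac peak of some class and 6 had an upstream one (CDH17, KRT18, KRT19, KRT20, CLDN3 and CLDN4). EPCAM, CDX1, CDX2, HNF4A, VIL1, CEACAM5 and GPA33 had no assigned peak. Of 9 leukocyte markers, 1 had a peak of some class (PTPRC) and 0 an upstream one. Of 10 fibroblast and endothelial markers, 3 had a peak (DCN, VWF and KDR) and 0 an upstream one. Of 8 neuronal and muscle markers, 2 had a peak (NEUROD1 and MYL2) and 1 an upstream one (MYL2).

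Some member genes are shown by the promoter sequence that their upstream peaks stand before. SMURF2, a ubiquitin ligase acting on TGF-beta receptors and SMAD proteins, and SPG7, a protease of the mitochondrial inner membrane, are shown because their peaks were so wide that they covered the start. CLDN4, a tight junction claudin, had upstream and promoter peaks, and KRT20, a keratin of differentiated intestinal epithelium, had upstream but no promoter peaks. The sequences are RefSeq promoters of GRCh38.p14, each from 250 bases before to 50 after the start, written 5′ to 3′ on the gene's strand. They span chr17:64662258-64662557 (minus strand) for SMURF2, chr16:89508138-89508437 (plus) for SPG7, chr7:73830746-73831045 (plus) for CLDN4 and chr17:40885193-40885492 (minus) for KRT20. Capitals mark the GC box GGGCGG, the TATA sequence TATAAA, the CCAAT box and the AP-1 sequence TGANTCA on either strand. No matches of different motifs overlapped in these 4 windows.
SMURF2: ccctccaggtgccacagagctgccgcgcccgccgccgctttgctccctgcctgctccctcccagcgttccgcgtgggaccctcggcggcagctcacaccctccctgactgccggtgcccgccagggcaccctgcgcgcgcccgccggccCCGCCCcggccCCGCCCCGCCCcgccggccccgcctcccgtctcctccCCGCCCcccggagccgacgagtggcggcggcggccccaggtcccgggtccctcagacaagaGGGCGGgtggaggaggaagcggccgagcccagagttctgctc
SPG7: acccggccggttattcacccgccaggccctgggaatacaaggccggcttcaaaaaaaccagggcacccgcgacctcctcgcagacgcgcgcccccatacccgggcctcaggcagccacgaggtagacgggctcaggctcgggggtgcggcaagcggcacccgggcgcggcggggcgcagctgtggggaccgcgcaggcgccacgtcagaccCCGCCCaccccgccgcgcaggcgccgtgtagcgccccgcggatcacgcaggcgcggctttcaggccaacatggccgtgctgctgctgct
CLDN4: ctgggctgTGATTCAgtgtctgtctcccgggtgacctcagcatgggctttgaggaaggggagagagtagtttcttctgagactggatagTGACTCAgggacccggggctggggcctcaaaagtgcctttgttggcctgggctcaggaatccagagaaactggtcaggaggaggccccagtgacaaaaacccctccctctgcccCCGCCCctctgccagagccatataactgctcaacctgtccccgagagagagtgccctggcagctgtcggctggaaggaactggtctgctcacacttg
KRT20: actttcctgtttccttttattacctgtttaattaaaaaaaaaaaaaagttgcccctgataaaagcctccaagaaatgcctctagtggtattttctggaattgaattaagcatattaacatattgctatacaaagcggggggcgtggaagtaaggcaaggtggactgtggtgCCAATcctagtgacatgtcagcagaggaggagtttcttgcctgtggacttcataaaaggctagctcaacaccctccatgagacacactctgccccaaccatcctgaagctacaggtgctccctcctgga

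The 4 windows differed in composition. SMURF2 had a GC content of 79.3% and 5 GC boxes, and SPG7 had 73.3% and 1 GC box. CLDN4 had 59.0% GC, 1 GC box and 2 AP-1 matches. The KRT20 window was 44.0% GC with a CpG observed-to-expected ratio of 0.138, and held 1 CCAAT box and no GC box. These matches describe letters in a window and are no evidence of binding.

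Over all genes with an upstream peak, 2271 promoter entries of 2035 genes were found in the table. Their median GC content was 61.3% and their median CpG ratio 0.724, against 63.7% and 0.800 for genes with a promoter peak and 58.7% and 0.579 for all 35116 promoters. The GC box was present in 55.0% of them, against 63.3% for genes with a promoter peak and 45.0% of all promoters. On both measures the genes with an upstream peak lay between the other sets, which share genes with them. AP-1 sequences were found in 8.37% of promoters of genes with an upstream peak, against 7.66% for genes with a promoter peak and 7.71% of all. Where a gene had peaks of both classes, the share was 10.9%, against 7.40% for genes with an upstream but no promoter peak. TATAAA was found in 10.0%, against 11.5% of all promoters, CCAAT in 34.5% against 34.6%, and the E-box CACGTG in 7.44% against 7.26%. A heat shock element of 3 units, searched as GAA, TTC and GAA with NN between them, on both strands, was found in 0.264% against 0.490% of all promoters.

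The distance from the start set out where the mark lay. Members ran from 2.004 to 19.997 kb before the start, with a median of 8.71 kb. The nearest kilobase was the fullest: 312 peaks lay at 2 to 3 kb, 146 at 10 to 11 kb and 124 at 19 to 20 kb. By wider bins, 770 peaks (26.8%, 25.2 to 28.4%) lay at 2 to 5 kb, 877 (30.5%) at 5 to 10 kb and 1229 (42.7%) at 10 to 20 kb. The count per kilobase therefore fell with distance, while the heights hardly moved, with median fold enrichments of 6.73, 6.59 and 6.59 in the 3 bins and median tags of 25, 24 and 25.

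At the near end of the window stood peaks before MAP3K3 (2.004 kb, 3.61-fold), CACUL1 (2.01 kb, 7.29-fold) and MYBL1 (2.013 kb, 5.77-fold), and just outside it stood promoter-class peaks of RRM2B (2.0 kb, 5.51-fold), ATR (1.996 kb, 5.05-fold) and SDC1 (1.995 kb, 5.57-fold). At the far end stood peaks before KRT18 (19.997 kb, 3.85-fold), ARHGAP29 (19.995 kb, 8.98-fold) and MIR3186 (19.99 kb, 4.70-fold), and just outside it intergenic peaks of CAMK1D (20.019 kb, 7.14-fold), SEMA4B (20.05 kb, 6.32-fold) and RFX3 (20.075 kb, 6.59-fold). Heights inside and outside either end overlapped.

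The class was not confined to ground outside genes. The midpoint of 718 members (25.0%, 23.4 to 26.6%) lay inside a transcript named in either list. The share was 2.42% of intergenic, 63.3% of promoter and 50.3% of all H3K27ac peaks, the last including the intron class. For 207 members (7.20%) the transcript was another one of the assigned gene, which has more than 1 start. For 511 (17.8%) it was of a different gene only. The files show in which order the classes were given: only 15 of 5272 intron peaks and 3 of 4832 intergenic peaks lay 2 to 20 kb before any start named in the lists, and all 2643 promoter peaks lay within 2 kb of one. For the listed starts, a position before a start thus took precedence over a position in an intron. The listed transcripts are only those assigned to a peak, so 718, and the 15 and 3 above, are minima.

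This order matters for any comparison of the sides of a start. Peaks of all classes whose first row placed them 2 to 20 kb after the start numbered 2086, of which 1577 were intronic. The upstream class was larger than that in all 18 of the 1 kb bins. With the 2158 members outside listed transcripts, it was larger in 11 of 18.

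**Figure D1:**
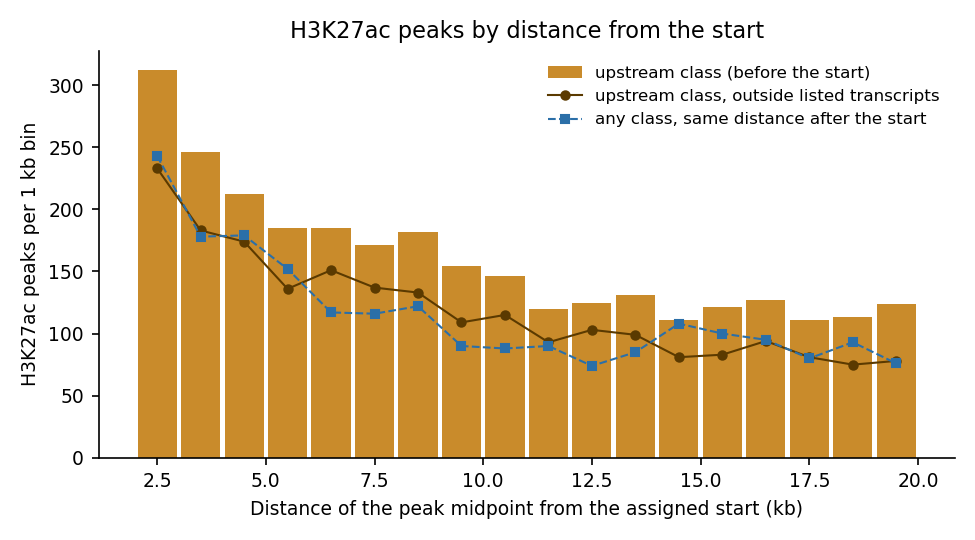
Number of H3K27ac peaks (y axis) per 1 kb of distance between peak midpoint and assigned start (x axis, kb). Bars show all upstream peaks (312 at 2 to 3 kb, 124 at 19 to 20 kb), circles those outside listed transcripts (233 and 78), and squares peaks at the same distance after a start (243 and 76).

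Width could carry a peak back towards the start. The span of 3 members (0.104%) reached it, those of CCAT1, SMURF2 and SPG7. The nearer edge of 23 members (0.800%) lay within 1 kb of the start and that of 243 (8.45%) within 2 kb. Before SMURF2 the peak at chr17:62658093-62664000 (hg19) was 5908 bp wide with 142 tags and 9.29-fold enrichment. The SPG7 peak, at chr16:89569461-89575010, was 5550 bp wide with 143 tags and 6.09-fold enrichment. No promoter-class peak was assigned to any of these 3 genes.

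In height the upstream peaks were close to every other class. Their median fold enrichment was 6.69 (quartiles 5.61 and 7.30), against 6.73 in promoter peaks (5.77 and 7.69) and 6.73 in intron and intergenic peaks (5.77 and 7.38). The 95% interval of the median was 6.59 to 6.73 for upstream and 6.73 to 6.73 for promoter peaks. Median tags were 24 against 25 in promoter and 24 in intron and intergenic peaks, and median width was 1216 bp against 1202 and 1190 bp. Chromosome by chromosome, over the 21 with at least 20 peaks in both classes, the median fold of upstream peaks was higher than that of promoter peaks on 5, lower on 6 and equal on 10. For width the upstream median was higher on 9 and lower on 12. For tags the upstream median was higher on 5, lower on 11 and equal on 5, by at most 3 tags either way. For members outside listed transcripts the width difference from promoter peaks was -8.5 bp, against 14 bp for all members.

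The fold values had coarse steps. For 51.9% of upstream peaks and 54.8% of all peaks, the fold lay within 0.01 of a multiple of 0.561, so the difference of 0.04 between the medians is far below 1 step. Members spanned 2.88- to 14.59-fold, 15 to 402 tags and 438 to 15354 bp. They held 90092 of 485046 tags in all H3K27ac peaks and covered 4.18 of 22.6 Mb. The false discovery rate given by the peak caller was high throughout, with a median of 12.5% for upstream peaks and 12.6% for all peaks, and no member was below 8.99%. It was highest where the score was highest: all 48 members given 100% were the 48 with the highest scores, with a median score of 280.3 against 63.8 over all members. CCAT1, HEATR6 and LINC00673 were among them, so this column does not rank the peaks from strong to weak.

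The upper tail was thin. An enrichment of at least 10-fold was reached by 54 upstream peaks (1.88%, 1.41 to 2.44%), against 65 promoter peaks (2.46%, 1.90 to 3.12%), 2.39% of intron and 2.57% of intergenic peaks. The share over all H3K27ac peaks was 2.35%, which lies inside the interval of the upstream share. At 8-fold the share was 14.1%, against 15.1% in all.

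**Figure D2:**
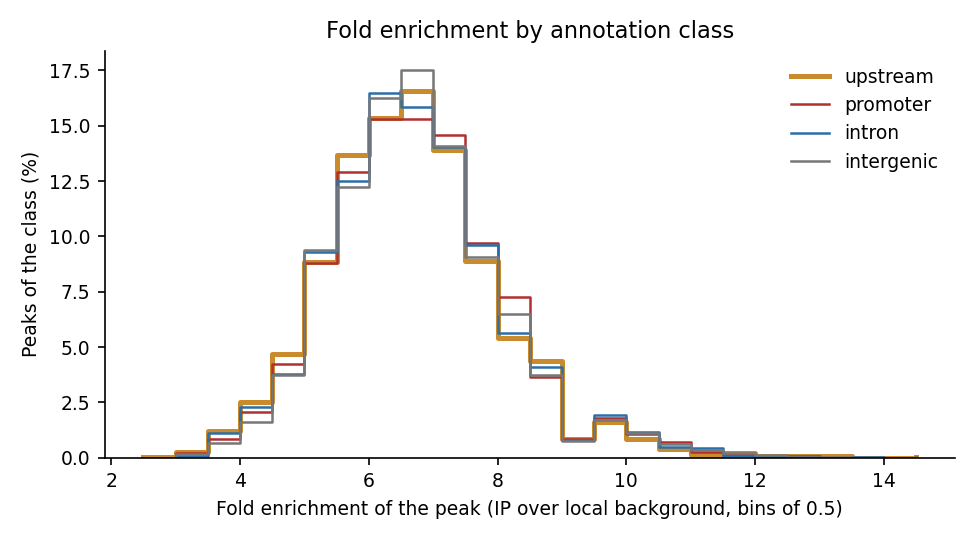
Share of peaks of each class (y axis, %) by fold enrichment of IP over local background (x axis, bins of 0.5), for upstream, promoter, intron and intergenic H3K27ac peaks. The 4 outlines lie close together, with medians of 6.69 for upstream and 6.73 for each of the other 3.

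The 12 members of highest fold enrichment stood before genes of unlike function. TXNDC2, a thioredoxin-domain protein of sperm, stood first at 14.59-fold, although with only 33 tags at 7.49 kb. HEATR6 followed at 13.46-fold with 73 tags, inside another listed gene. Before CCAT1, a long noncoding RNA known from colon cancer, the peak had 13.38-fold enrichment, 402 tags and a width of 15354 bp, the most tags and the greatest width of any member. CD55, which protects cells from complement, had 12.91-fold enrichment and 55 tags at 10.4 kb (chr1:207483509-207485794). PPARG, a nuclear receptor, also had 12.91-fold enrichment, with 47 tags, at a peak inside another PPARG transcript. ERRFI1, a feedback inhibitor of EGFR, had 12.35-fold enrichment with 32 tags at 4.71 kb, and SPECC1L, a cytoskeletal cross-linking protein, 12.26-fold with 26 tags. The next 5 were MALAT1, POLD4, PPP1R12B, ADGRF3 and ACTBL2, at 11.78-fold each with 29 to 52 tags. High fold and many tags were mostly different peaks: of these 12 only CCAT1 was also among the 10 members with the most tags.

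The 10 members with the most tags were wide and ranged from 3.64- to 13.38-fold, CCAT1 being the highest. LINC00673 had peaks of 240 tags (6.90-fold) and 176 tags (5.87-fold). CASC19, a noncoding RNA gene next to CCAT1, had 201 tags at 8.60-fold, and C6orf99 had 197 tags at 7.34-fold. SMAD3, which carries TGF-beta signals to the nucleus, had 175 tags at 8.16-fold over 7218 bp. COMMD10, SEPTIN9 and PDP1 had 181, 177 and 177 tags, at 7.41-, 7.31- and 3.64-fold. Among the 8 widest members were also TCF7L2, the transcription factor of Wnt signalling (6897 bp, 166 tags, 6.65-fold), and ITGB4, the integrin of hemidesmosomes (6461 bp, 163 tags, 6.47-fold). CCAT1 and CASC19 belonged to 1 joined region of 23 H3K27ac peaks lying within 10 kb of each other.

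The upstream peaks were assigned to 2046 genes. A single upstream peak was found for 1524 of them, 2 or more for 522 (25.5%, 23.6 to 27.5%) and 5 or more for 29. The upstream class was the sole class of 929 genes (45.4%). More than 1 gene was written for 268 of the peaks, whose first row decided the gene used here, and any row named 2257 genes.

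MIR100HG, the host gene of miR-100 and let-7a-2, led with 15 upstream peaks before 5 starts. Their enrichment was 5.05- to 10.1-fold (median 7.69) and they summed to 449 tags, but 14 of the 15 lay inside another MIR100HG transcript. SMAD3 had 12 before 4 starts, at 3.62- to 8.16-fold with 705 tags, and 10 of them lay inside SMAD3. DST, a cytoskeletal linker of hemidesmosomes, had 8 before 3 starts, 6 of them inside DST. In these genes the upstream class was therefore largely intragenic. LINC01714 (7 peaks, 5.05- to 10.1-fold) and ARHGAP29 (6 peaks, 5.59- to 8.98-fold), a GTPase-activating protein, differed in that all peaks lay before 1 start and none inside the gene. ZBTB20, a transcriptional repressor, had 7 peaks, ARHGAP12 6 and LINC01588 6.

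**Figure D3:**
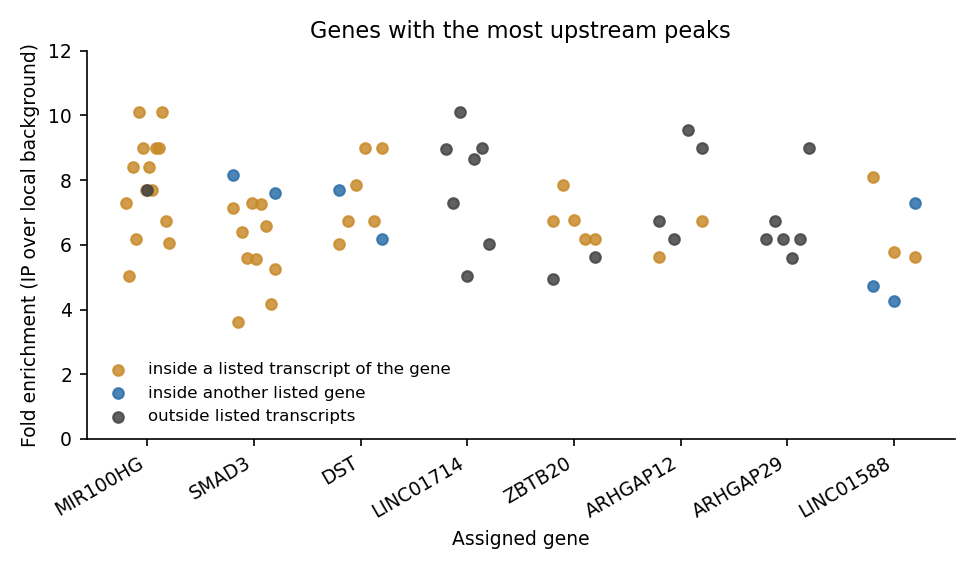
Fold enrichment of each upstream peak (y axis) of the 8 genes with the most upstream peaks (x axis), coloured by whether the midpoint lay inside a listed transcript of the gene, inside another listed gene or outside. Of the 15 MIR100HG peaks 14 lay inside the gene, and all 7 of LINC01714 lay outside listed transcripts.

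A promoter peak accompanied the upstream peak at 512 of the 2046 genes (25.0%, 23.16 to 26.96%), against 15.1% of 4056 genes with an intron or intergenic peak, a set that includes genes with upstream peaks as well. The genes differ in how many peaks they carry, and that was not adjusted for. Among peaks with a score of at least 100, the share of genes with an upstream peak that also had a promoter peak was 13.2%. Upstream peaks of genes that also had a promoter peak numbered 864 and had a median of 29 tags, 1361 bp and 6.64-fold, against 23 tags, 1155 bp and 6.69-fold for the other 2012. Their median gap to the next H3K27ac peak was 2.15 kb, against 12.9 kb. That contrast is partly built in, since both classes are defined by closeness to starts of the assigned gene. Thus upstream peaks of genes that also had a promoter peak were wider and had more tags but not more fold enrichment. This grouping went by assigned gene and not by distance to the promoter peak. A promoter-class peak of any gene lay within 1 kb of 105 members (3.65%) and within 5 kb of 438 (15.2%).

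Within the 512 genes, the highest upstream peak had more fold enrichment than the highest promoter peak in 252, less in 241 and the same in 19, with medians of 6.81 and 6.73. A gene with several upstream peaks has more chances of a high one. Among the 324 genes with a single upstream peak, it was higher in 135, lower in 174 and equal in 15, and the median difference was -0.16. The promoter value there was still the highest where a gene had several promoter peaks, which gives that side more chances. The 2 heights lay within 1 step of each other in 135 of the 512 genes.

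Differences at single genes, picked here by size after the values were seen, were large on both sides. ZNF770 had 11.22-fold upstream against 5.49-fold at the promoter, and POLD4, a subunit of DNA polymerase delta, 11.78 against 6.17. SPECC1L had 12.26 against 6.99. ACTR3, of the actin-nucleating Arp2/3 complex, had 11.75 against 6.73, and REEP3 10.1 against 5.13. TRIM8 had 9.38 against 4.70. With the promoter higher, RNVU1-18, a U1 small nuclear RNA variant with near-identical copies, had 4.68-fold upstream against 10.41-fold at the promoter. PLEC, the linker protein plectin, had 6.05-fold upstream against 11.1-fold at the promoter, GPR15 5.63 against 10.66 and MEAK7 4.98 against 10.63. CD46, a complement regulator, had 4.81 against 9.54 and CHURC1-FNTB 5.49 against 10.1. With 1 library these are single values with no replicate error.

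**Figure D4:**
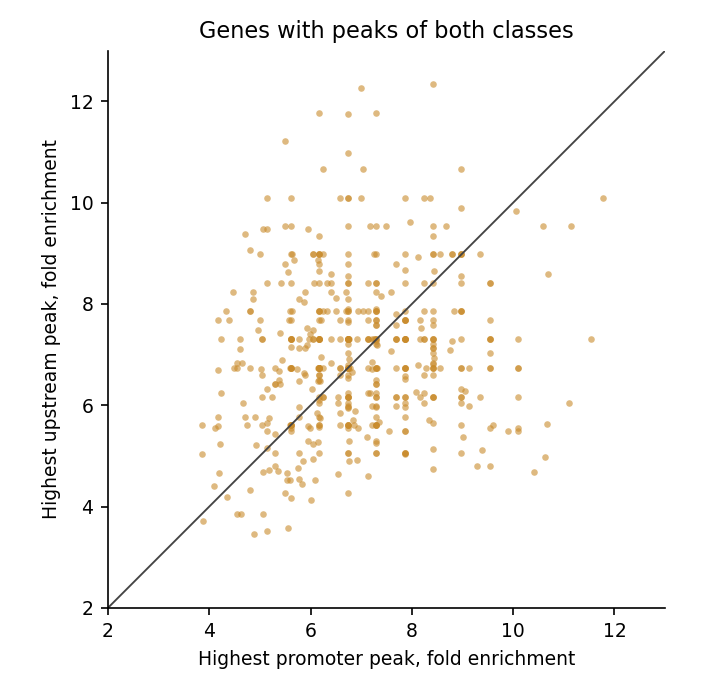
Fold enrichment of the highest upstream peak (y axis) against that of the highest promoter peak (x axis) for the 512 genes with both, 1 point per gene, with the line of equality. Points lie on both sides of the line, 252 above and 241 below.

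Upstream peaks tended to have company. Another H3K27ac peak lay within 10 kb of 1682 members (58.5%, 56.7 to 60.3%), against 42.8% of promoter, 54.3% of intron and 49.8% of intergenic peaks and 51.7% of all. For members outside listed transcripts it was 54.4%, close to the intron share. The median gap of all members to the nearest peak was 6.27 kb, against 17.6 kb for promoter peaks. Members with a neighbour had a median of 28 tags and 1348.5 bp, against 21 tags and 1079.5 bp for the 1194 without. When peaks within 10 kb of each other were joined, 498 members (17.3%, 15.9 to 18.7%) fell into regions of at least 5 peaks. The share was 15.1% over all H3K27ac peaks, with 6.62% of promoter, 15.6% of intron and 18.0% of intergenic peaks. The members in such regions had a median of 34.5 tags and 1645 bp, but a median fold enrichment of 6.59.

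The pathways were read through lists of genes, with 30.2% of the 6786 genes that had any H3K27ac peak having an upstream one as the background. Among 24 adhesion, laminin and hemidesmosome genes, 21 had an H3K27ac peak and 12 an upstream one, with 32 upstream peaks of median fold 6.73. ITGA3, the alpha chain of a laminin-binding integrin, had 9.48-fold with 128 tags, DST 8.98-fold with 22 tags and CAV1, the coat protein of caveolae, 8.98-fold with 42 tags. TNS4, a focal adhesion tensin, had 7.86-fold at 18.0 kb. CCND1, TGFA, CDH17 and the miRNA genes were named after their values were seen.

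For the TGF-beta and YAP/TEAD list, 18 of 27 genes had a peak and 8 an upstream one, with 26 upstream peaks of median fold 6.94. ID3, an inhibitor of basic helix-loop-helix factors, had 10.1-fold with 44 tags at 10.3 kb. SMAD6, an inhibitory SMAD, had 8.42-fold with 28 tags. TGFBR2, the type II TGF-beta receptor, had 6 upstream peaks, none inside the gene and none at its promoter, at 5.49- to 8.42-fold and 16 to 48 tags. The 6 lay between 7.60 and 15.4 kb before 1 start.

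The EGFR, ERK feedback and AP-1 list had peaks at 25 of 31 genes and upstream peaks at 9, with a median fold of 7.04 over 17 peaks. ERRFI1 alone had 5 upstream peaks, of 6.17- to 12.35-fold and 27 to 56 tags, besides 2 promoter peaks of up to 8.42-fold. SPRED2, an inhibitor of ERK signalling, had 8.98-fold, EPHA2, a receptor tyrosine kinase, 7.90-fold and ATF3, a stress-induced transcription factor, 7.30-fold. CCND1, the G1 cyclin, had 1 of 7.18-fold and TGFA, an EGFR ligand, 1 of 6.73-fold.

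Colonic epithelial identity and junction genes had a peak at 19 of 33 and an upstream peak at 11, with 20 upstream peaks of median fold 6.08. CLDN4 had 10.1-fold with 46 tags at 7.09 kb, against 5.61-fold at its highest promoter peak, and KRT20 had 9.54-fold with 47 tags at 4.34 kb. KRT18, a simple epithelial keratin, had 8.42-fold upstream and 8.98-fold at its promoter, and KLF5, a transcription factor of intestinal crypts, 7.30-fold at 16.8 kb. CDH17, the intestinal cadherin, had peaks of 4.54- to 6.41-fold. Of the 20 Wnt genes, 8 had a peak and 5 an upstream one. RNF43, a ubiquitin ligase that removes Wnt receptors, had 9.48-fold with 134 tags, TCF7L2 6.65-fold, AXIN2, a scaffold of the beta-catenin destruction complex, 6.58-fold and BMP4, a secreted ligand, 5.05-fold.

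Of 44 heat shock and co-chaperone genes, 22 had an H3K27ac peak and 7 an upstream one, at 9 peaks of median fold 6.17. HSPA13 had 7.30-fold at 2.24 kb, HSPB1, a small heat shock protein, 6.73-fold and DNAJB1, an HSP40 co-chaperone, 6.41-fold against 7.30-fold at its promoter. PTGES3, the HSP90 co-chaperone p23, had 6.17-fold at 2.24 kb. None of these peaks met an HSF1 peak, but only 0.174% of all upstream peaks and 0.26% of all H3K27ac peaks did. With 9 peaks, this does not set the list apart.

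Among 25 p53 target and NRF2 antioxidant genes, 14 had an H3K27ac peak and 8 an upstream one (57.1% of those with a peak): TXNRD1, thioredoxin reductase, had 9.54-fold with 94 tags and GDF15, a stress-induced cytokine, had 5 peaks of 5.49- to 9.13-fold and no promoter peak. NFE2L2, which encodes NRF2, had 7.14-fold upstream and 8.42-fold at its promoter. Of 24 glycolysis and lactate genes, 12 had a peak and 7 an upstream one (58.3%), among them LDHB, a lactate dehydrogenase chain (8.98-fold), SLC16A3, a lactate exporter (8.63-fold), SLC2A3, a glucose transporter (7.69-fold), and the enolase ENO1 (7.14-fold). In glutamine and amino acid metabolism 11 of 33 genes had a peak and 3 an upstream one (27.3%): CTPS1 (8.42-fold), which makes CTP using glutamine, SLC7A11 (8.42-fold), the cystine-glutamate exchanger, and GLUD1 (6.73-fold), glutamate dehydrogenase. Of 27 histone acetylation and transcription cofactor genes, 7 had a peak and 3 an upstream one (42.9%): NCOR1 (6.32-fold), ARID1B (6.17-fold) and HDAC7 (5.88-fold). Leaving out the lists of other cell types, the share of genes with a peak that had an upstream one ran from 27.3% for glutamine and amino acid metabolism to 62.5% for Wnt genes, each over 25 genes or fewer. The lists were chosen with earlier results known, and the number of peaks per gene was not adjusted for.

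Lists of other cell types had few H3K27ac peaks of any class. Among 20 leukocyte genes 2 had a peak and 0 an upstream one. Among 20 fibroblast and endothelial genes 5 had a peak and 1 an upstream one (ACTA2, smooth muscle actin, 7.14-fold). Among 20 neuronal and muscle genes 4 had a peak and 1 an upstream one (MYL2, 5.61-fold). With 5 genes or fewer per list, these counts do not set the upstream class apart from the background of 30.2%. Few of the loci named in the study had assigned peaks. ANXA11, an annexin, had 2 intron peaks and no upstream peak. LINC00857, SLC1A5, GLUL, HSF1, EP300 and MTOR had no assigned H3K27ac peak of any class in the list.

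By gene type, 74.9% of upstream peaks were assigned to protein-coding genes (73.3 to 76.5%), against 82.0% of promoter peaks. Long noncoding RNA genes took 16.2% against 11.1%, and miRNA genes 4.73% against 2.76%. By noncoding transcript accession (NR), the upstream share was 28.1%, close to the 27.8% of all H3K27ac peaks. It was 21.8% in promoter, 15.8% in intron and 44.2% in intergenic peaks. The 136 upstream peaks at 95 miRNA genes had a median fold of 6.17 and a median of 31 tags, against 6.69 and 24 for all upstream peaks.

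Mature miRNAs of the strongest of these and of a widely studied cancer miRNA are shown with the seed, bases 2 to 8, in capitals, from RefSeq on GRCh38.p14: miR-29a-3p is at chr7:130876748-130876769 (minus strand) and miR-21-5p at chr17:59841273-59841294 (plus strand).
hsa-miR-29a-3p: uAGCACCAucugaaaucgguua
hsa-miR-21-5p: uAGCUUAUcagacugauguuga

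MIR29A had the highest enrichment of any miRNA gene, 11.22-fold with 31 tags at 6.36 kb, inside another listed gene. MIR21, a miRNA abundant in many carcinomas, had 9.07-fold with 110 tags at 9.90 kb, also inside another listed gene. MIR1293, MIR4426 and MIR5702 had 10.1-fold each, with 83, 28 and 45 tags. Leaving out miRNA genes of chromosome 8, a mature sequence was read for 78 of the 95 genes, and the 103 matures carried 102 different seeds. Only 1 seed was shared by 2 or more of the genes.

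Overlap with HSF1 peaks was rare. An HSF1 peak was met by 5 upstream peaks (0.174%, 0.0565 to 0.405%), against 4 promoter peaks (0.151%), 20 intron peaks (0.379%) and 12 intergenic peaks (0.248%), and 0.26% of all H3K27ac peaks. An HSF1 peak within 10 kb was found for 54 members (1.88%), against 1.94% of all. The median gap to the nearest HSF1 peak was 290.3 kb. None of the members with a score of at least 100 met an HSF1 peak, which allows a share of up to 0.755%.

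The 5 were before DUSP1, DUSP22, TMEM218, MRPS23 and H2BC6. DUSP1, an early-response phosphatase of MAP kinases, had an H3K27ac peak of 7.04-fold with 29 tags at 9.14 kb (chr5:172206715-172207965), which shared 421 bp with an HSF1 peak of 3.88-fold and 15 tags. DUSP22, another dual-specificity phosphatase, had 5.13-fold with 25 tags, and its HSF1 peak 4.23-fold with 44 tags over 916 shared bases. TMEM218, a transmembrane protein, had 7.25-fold with 18 tags and an HSF1 peak of 3.99-fold with 15 tags. MRPS23, a mitochondrial ribosomal protein, had 4.20-fold with 52 tags and an HSF1 peak of 4.36-fold with 24 tags. H2BC6, a histone H2B gene, had 5.15-fold with 45 tags, and the HSF1 peak, of 3.99-fold, was assigned to the neighbouring H2BC5. Every HSF1 partner had a lower fold than its H3K27ac peak except at MRPS23, but the values come from IPs with separate inputs.

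Chromosomes differed in the share of peaks named upstream, which ran from 11.1% of 987 peaks on chromosome 4 (9.25 to 13.3%) to 30.3% of 337 on chromosome 19 (25.4 to 35.5%). Chromosomes 16 and 20 had 24.3% each, chromosome 17 had 21.95% and chromosome 1 had 21.8%. The X chromosome gave 6 of 20 peaks. A class defined by closeness to starts depends on gene density, whose part in this was not tested.

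**Figure D5:**
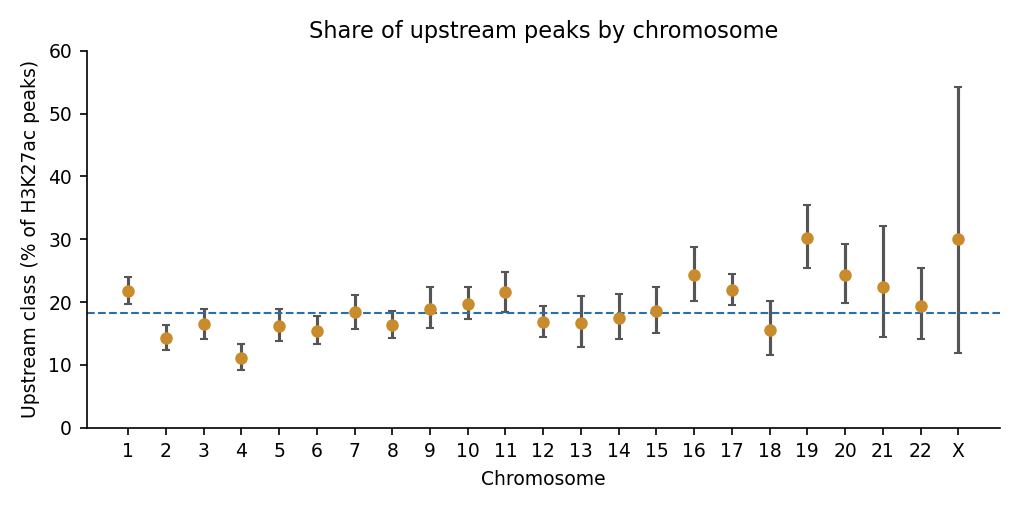
Share of H3K27ac peaks that were upstream (y axis, %) on each chromosome (x axis), with exact 95% binomial intervals and a dashed line at the 18.2% of all peaks. Chromosome 4 lies lowest at 11.1% and chromosome 19 at 30.3%.

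Depth varied by chromosome too. The median tags of an upstream peak were 38 on chromosome 17, 32 on 8, 30 on 10 and 25 on 16, against 21 to 24 on the other autosomes. Upstream peaks on these 4 chromosomes numbered 725 (25.2%) and had a median of 32 tags, 1534 bp and 6.17-fold, against 23 tags, 1144 bp and 6.73-fold elsewhere. More tags went with less fold enrichment there. Of the 43 members under 4-fold, 30 (69.8%) lay on these 4 chromosomes, and the 43 had a median of 54 tags. The lowest were PDP1 (2.88-fold, 68 tags), TBC1D3C (3.18- and 3.45-fold, 154 tags each), CARD14 (3.20-fold), LOC100133331 (3.20-fold), AKAP1 (3.25-fold) and SEC22B (3.39-fold). TBC1D3C belongs to a family of near-identical copies, among which the assignment of reads is uncertain. Copy number was not measured in these files, and its part in these values was not tested.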

How the data were processed

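ChIP-seq of H3K27ac and HSF1, each with its input, was analysed from the peak annotation tables of HCT116 cells. The authors called peaks of each IP against its input with MACS, and the submitters' processing notes name FastQC, Bowtie2 2.2.7 and hg19. Read filters and library totals are not given in the sources used here, so depth is known only as tags in peaks. The deposited columns used were the tag count, the peak score (derived from the p-value on a log scale), the fold enrichment (a ratio) and the false discovery rate in percent. The authors assigned each peak to genes with a class and a distance. Distances ran from the peak midpoint to the start, within 1 bp in all 39350 rows, and the first row of each peak was used.

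Shares, medians and gaps were computed with Python 3.11.15, pandas 2.3.3, numpy 2.4.6 and scipy 1.17.1, and figures were drawn with matplotlib 3.10.9. Shares have exact Clopper-Pearson intervals, and medians have order-statistic intervals. Overlap needed 1 shared bp. The computations were tested on simulated data. With 1 library per group no test between conditions was run. Gene types and promoter and miRNA sequences came from RefSeq (GRCh38.p14). Gene types were matched by transcript identifier or, failing that, by symbol, for 2862 of 2876 peaks. RefSeq positions were not compared with hg19.

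Members and 13 gene lists were chosen with earlier results of these data known. Named are the 12 members of highest fold, the 10 with the most tags, the 8 widest, up to 4 per list, the 8 genes with the most upstream peaks, the members that meet an HSF1 peak, those reaching the start, the study's loci and the peaks at the ends of the window. Alternatives were a score of 100 or more, the row of the nearest start, other thresholds and distances, and leaving out chromosomes 8, 10, 16 and 17. Peak sequence was not analysed here, since no genome of that build was used. Some genes that these rules name are not reported here.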

Additional observations from a re-analysis of the deposited data

How the results depend on the processing

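Over 11 results and 62 alternative values, 40 moved by less than the counting interval or the spread, and 22 moved more. Among peaks with a score of at least 100, the width difference between upstream and promoter peaks was 99 bp (14 bp for all peaks), the tag difference 1 (-1), the share at 10-fold 7.80%, spans reaching the start 0.616%, genes with a promoter peak 13.2%, a neighbour within 10 kb 43.7% and HSF1 overlap 0% (up to 0.755%). With the row of the nearest start 29.1% lay within 5 kb, and by nearest edge 31.5%. Without chromosomes 8, 10, 16 and 17 the values were 0% reaching the start (up to 0.171%), 23.1% with a promoter peak and 55.2% with a neighbour. Leaving out spans that reach the start gave 0% by construction, while an edge within 1 kb gave 0.800%. The fold threshold of 8 gave 14.1% and that of 12 gave 0.243%. A neighbour within 5 kb was found for 46.5% and within 20 kb for 70.2%. HSF1 within 10 kb gave 1.88%, promoter class in any row 29.1%, and tags per kb in place of tags a difference of -0.19. Only members outside listed transcripts, an alternative chosen after seeing the data, gave 54.4% with a neighbour and a width difference of -8.5 bp. Causes of other moves were not tested. The direction of the width and tag differences thus depended on these choices. All 13 list counts stayed within 1.5 times when genes of any row were counted. No paired analysis was possible because each group had 1 library and the labels give no replicate numbers. Library depth and replicate error are unknown, and fold steps of 0.561 limit differences of height.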

Other observations

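One member lay on the mitochondrial genome: the peak before MIR12136 had 45 tags and 5.38-fold enrichment. MIR100HG carried 26 H3K27ac peaks in all, 15 of them upstream and 5 at promoters, where the highest reached 11.78-fold, against 10.1-fold upstream. LINC01714 had 27 H3K27ac peaks, of which 7 were upstream and 18 intergenic, and ERRFI1 had 23, of which 5 were upstream and 16 intergenic. LOC100996724 had an upstream peak of 222 tags at only 3.94-fold. A false discovery rate of 100%, which in this list went with the highest scores, was given to 48 upstream peaks (1.67%), against 17 promoter peaks (0.643%) and 1.63% of all H3K27ac peaks.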
